A study of Homo sapiens with 5 samples.

Results

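Transcripts of 10 genes of the epithelial-mesenchymal transition (EMT) were followed in 2 established cell lines of human pancreatic ductal adenocarcinoma, Miapaca and BXPC3. The 10 are 6 transcription factors, ZEB1, ZEB2, SNAI1, SNAI2, TWIST1 and TCF4, and 4 products, VIM, CDH2, FN1 and TGFBI. They were chosen by gene symbol as textbook EMT genes, and they are 10 of the 20043 genes named on the array. The rule sets no threshold on a measured value, but it names VIM as abundant in Miapaca and CDH1 (E-cadherin) as abundant in BXPC3. The levels of VIM are therefore given as a description, with no test.

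The study asked what happens to gene expression when LYNX1 is targeted by RNA interference. LYNX1 is a Ly6 family protein, tethered to the cell surface, that modulates nicotinic acetylcholine receptors. RNA of 5 cultures was hybridised to Illumina human BeadChip arrays, with 1 array per group. Miapaca cells, grown in DMEM, received an siRNA against the LYNX1 open reading frame (ORF), an siRNA against its 3′ untranslated region (3UTR), or a control siRNA, each at 60 pM as labelled with 4 µl of lipofectamine RNAiMAX. BXPC3 cells, grown in RPMI-1640, received the ORF siRNA or the control siRNA at 200 nM with 14 µl of Xtreme gene9. The siRNA was added 24 h after seeding and left on for 72 h before RNA extraction. The 3UTR siRNA was not used in BXPC3.

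Medium, siRNA dose and transfection reagent changed together with the cell line, so they cannot be told apart from it. Each array of a line also had its own siRNA, so the spread within a line holds siRNA differences, and a p-value measures only the spread between these arrays. The number of arrays limits the precision. With so few arrays, lines that do not overlap also occur for genes with no called difference, such as KRT18 (limma, adjusted p = 0.388). Mean bead intensity was 355, 343 and 463 on the Miapaca ORF, 3UTR and control arrays, and 361 and 366 on the BXPC3 ORF and control arrays. Between 16622 and 18205 probes per array were detected, meaning a detection p under 0.01. Both LYNX1 probes were undetected on all 5 arrays, with a lowest detection p of 0.0228, so the target itself could not be used to check the labels. In RNA of a whole culture, fewer cells of a type and less RNA per cell cannot be told apart.

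In the epithelial-mesenchymal transition, cells bound to their neighbours through E-cadherin loosen those contacts and take up a motile, fibroblast-like form built on vimentin filaments. The zinc-finger factors of the SNAIL and ZEB families bind E-box sequences at epithelial genes and repress them, while TWIST1 and TCF4 (also called E2-2) are basic helix-loop-helix factors that act on the same kind of site. TGF-beta, signalling through its receptors and the SMAD proteins, is the best known inducer of the program, and microRNAs of the miR-200 family and miR-205 hold it back by targeting the ZEB1 and ZEB2 mRNAs.

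The microRNAs that target ZEB1 and ZEB2 are shown because the array carried probes for their precursors, which are described after the ZEB genes. Mature sequences are from RefSeq, read on the plus strand of GRCh38.p14, and capitals mark the seed, bases 2 to 8, that pairs with a target. They fall into 3 seed groups.
hsa-miR-200b-3p (chr1:1167160-1167181): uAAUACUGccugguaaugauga
hsa-miR-200c-3p (chr12:6963742-6963764): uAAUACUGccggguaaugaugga
hsa-miR-429 (chr1:1169055-1169076): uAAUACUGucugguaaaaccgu
hsa-miR-200a-3p (chr1:1167916-1167937): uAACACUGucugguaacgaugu
hsa-miR-141-3p (chr12:6964155-6964176): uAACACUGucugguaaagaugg
hsa-miR-205-5p (chr1:209432166-209432187): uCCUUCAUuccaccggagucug

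The site on which SNAIL and ZEB proteins act is shown at CLDN7, which encodes a claudin of epithelial tight junctions and was among the epithelial genes that differed most between the lines. CLDN7 was picked for display after its values were seen. The promoter table holds 2 starts of CLDN7, of which 1 has the site and is shown. The 300 bases around that start (RefSeq, GRCh38.p14, minus strand, chr17:7262429-7262728) hold 5 copies of CAGGTG or of CACCTG, which is the same site read from the other strand. Of these, 4 lie before the gene start. The windows below run 5′ to 3′ along the gene, with the E-boxes in capitals.
CLDN7 window 1 (chr17:7262635-7262660): ttcctcctCACCTGggcaaggagggg
CLDN7 window 2 (chr17:7262596-7262621): ttccggttCAGGTGagtgtcccttcg
CLDN7 window 3 (chr17:7262481-7262506): catatactCAGGTGcgcccCACCTGt

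The same letters occur in 20.6% of the 35116 promoters of that length in the table, counting both strands. Among the EMT genes under study, 7 had promoters in the table, and ZEB1 alone of these held the letters, in 2 of the 23 promoters. In the list of epithelial genes described further below, which holds SNAIL and ZEB targets beside other junction and keratin genes, 13 of 20 promoters held them, belonging to 12 of 15 genes. A match describes the letters of the window and is not evidence that a factor binds there.

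Of the 10 genes, VIM and TGFBI were detected on all 5 arrays. CDH2 and SNAI2 were detected in BXPC3 only, and the other 6 genes were detected on no array. The members' 15 probes thus gave measurable levels for 4 genes, and these did not move together: VIM was higher in Miapaca, while SNAI2, TGFBI and CDH2 were lower there than in BXPC3. No member detected on either array of a comparison changed 2-fold with a LYNX1 siRNA.

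**Figure D1:**
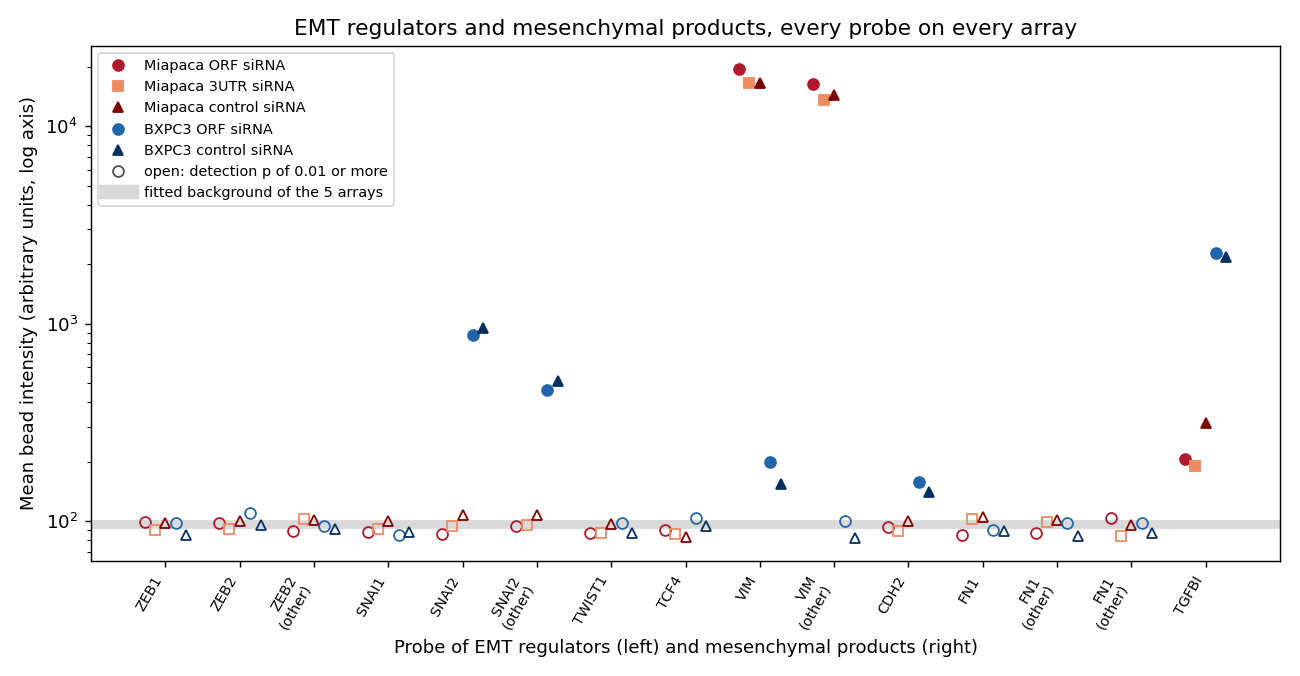
Mean bead intensity (log axis, arbitrary units) of each probe of the 10 genes on each of the 5 arrays, with Miapaca arrays left of BXPC3 arrays within each probe, filled symbols for detected probes, and the grey band for the fitted background of 92.4 to 99.5. Both VIM probes are brightest on the Miapaca arrays, where the first read 16504 to 19424, SNAI2 and TGFBI are brightest in BXPC3, and the probes of ZEB1, ZEB2, SNAI1, TWIST1, TCF4 and FN1 stay near the band on every array.

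Among the transcription factors, ZEB1, the repressor of CDH1 most often tied to a mesenchymal state in pancreatic cancer lines, was not well above background. Its single probe (ILMN_1762231) read 98.3, 89.7 and 98.3 intensity units on the Miapaca ORF, 3UTR and control arrays, and 98.0 and 85.2 on the BXPC3 ORF and control arrays. These values overlap between the lines and lie at the fitted background, and the lowest detection p of the probe was 0.0927. ZEB2, the related repressor, had 2 probes with intensities of 88.7 to 110. Its lowest detection p, 0.0127 on the BXPC3 ORF array, was the lowest of any probe of the 6 undetected genes.

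SNAI1, the founding SNAIL repressor, read 85.2 to 100.5 over the 5 arrays. TWIST1, a factor first known from mesoderm formation in Drosophila, read 86.5 to 97.6, and TCF4 read 83.0 to 104. No level or line difference can be given for these 5 factors, since each probe has only a bound, on the arrays of Miapaca and of BXPC3 alike. TCF4 here is the E2-2 gene and not TCF7L2, the Wnt effector that shares the alias.

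The precursor probes of the miR-200 family, MIR200A, MIR200B, MIR200C, MIR141 and MIR429, were likewise undetected on all 5 arrays. The MIR205 probe was detected in BXPC3 only, and it was looked at after its values were seen. Its log2 levels were 4.32, 4.26 and 4.35 on the Miapaca ORF, 3UTR and control arrays, all not well above background, and 6.06 and 6.95 on the BXPC3 ORF and control arrays. The lines did not overlap. Detected in BXPC3 alone, MIR205 could only come out lower in Miapaca. The level was at least 3.94-fold lower there (limma, adjusted p = 0.00109). A bound of this kind sets the brighter line's mean against whichever was higher on each dim array, the probe itself or the weakest detected signal. In BXPC3 the ORF array was 0.90 log2 units below the control array. Such a probe reads polyadenylated precursor RNA, and the mature microRNAs shown above were not measured.

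SNAI2 (SLUG), the second SNAIL-family repressor, was the one EMT factor of the 6 with a measurable level, and it was detected in BXPC3 only. Its brighter probe (ILMN_2082585) read 85.9, 94.0 and 107 intensity units on the Miapaca ORF, 3UTR and control arrays, against 880 and 948 on the BXPC3 ORF and control arrays. On the log2 scale after normalization these were 4.25, 4.44 and 4.58 in Miapaca, none well above background, and 9.76 and 9.87 in BXPC3. Every BXPC3 value lay far above every Miapaca value.

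The SNAI2 difference, Miapaca minus BXPC3, was −5.40 ± 0.23 (log2, SE, 3 arrays against 2; limma, adjusted p = 2.09e-06), a level at least 38.3-fold lower in Miapaca. SNAI2 entered the fit through its BXPC3 arrays alone, so its direction was fixed in advance and the adjusted p is no support for it. Adjusted p-values are Benjamini-Hochberg values over the 12842 genes detected on at least 1 array. Of those genes, 14.1% were called higher and 14.6% lower in Miapaca at an adjusted p under 0.05. By its dimmer probe SNAI2 was at least 17.9-fold lower. The size depended on the background step: −3.36 without background correction and −3.39 in the authors' normalized values, on the same side of the threshold.

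VIM encodes vimentin, the intermediate filament protein of mesenchymal cells. Its brighter probe (ILMN_1782538) read 19424, 16504 and 16637 intensity units on the Miapaca ORF, 3UTR and control arrays, against 199 and 154 on the BXPC3 ORF and control arrays. The log2 levels were 14.19, 14.05 and 13.94 in Miapaca and 6.89 and 6.16 in BXPC3. The lines did not overlap, and BXPC3 still had a detectable signal on this probe. The means were 14.06 ± 0.13 in Miapaca (SD, n = 3) and 6.53 ± 0.52 in BXPC3 (SD, n = 2), which is a difference of 7.53 or 185-fold. It ranked 6 from the top among 12842 genes.

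A second VIM probe (ILMN_2058251) gave log2 levels of 13.99, 13.81 and 13.51 in Miapaca, against 4.47 and 4.19 in BXPC3, where it was undetected. By this probe VIM was at least 637-fold higher in Miapaca. VIM transcript was thus above background in BXPC3 by 1 of the 2 probes.

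The 5 genes whose pattern lay nearest to VIM, by Euclidean distance between centred log2 values over the 5 arrays among 12842 genes, were HOXB8 (0.457), DPYSL2 (0.553), TM4SF18 (0.570), EEF1A2 (0.679) and S100A4 (0.728). HOXB8 is a homeobox factor, DPYSL2 a microtubule-binding protein and EEF1A2 a translation elongation factor. HOXB8 had log2 levels of 11.91, 11.67 and 11.68 in Miapaca, against 4.45 and 4.30 in BXPC3. HOXB8, DPYSL2, TM4SF18 and EEF1A2 were each detected on the 3 Miapaca arrays and on no BXPC3 array. S100A4, a calcium-binding protein also named fibroblast-specific protein 1, was detected on all 5.

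CDH2 encodes N-cadherin, whose gain in exchange for E-cadherin is the cadherin switch of EMT. Its probe (ILMN_1779228) read 93.3, 89.3 and 100.1 intensity units on the Miapaca ORF, 3UTR and control arrays, against 157 and 140 on the BXPC3 ORF and control arrays. The log2 levels were 4.42, 4.31 and 4.39 in Miapaca, not well above background, and 6.24 and 5.87 in BXPC3. The lines did not overlap, although the BXPC3 signal was itself low. The difference was −1.68 ± 0.23 (SE; limma, adjusted p = 0.0012), at least 2.88-fold lower in Miapaca. Like SNAI2, CDH2 was detected in BXPC3 alone and could only come out lower in Miapaca.

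The size of the CDH2 difference was −0.62 without background correction, −0.66 in the authors' normalized values and −0.88 with an offset of 50. It was −1.49 with the BXPC3 ORF array left out, which leaves 1 BXPC3 array. CDH2 entered the fit through its BXPC3 arrays alone, so its adjusted p is no support for the direction. N-cadherin transcript was thus measured in the line with abundant E-cadherin and not in the line with abundant vimentin.

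CDH1, which encodes E-cadherin and stands here for the epithelial state, had log2 levels of 4.28, 4.44 and 4.25 on the Miapaca ORF, 3UTR and control arrays, against 10.82 and 10.88 on the BXPC3 ORF and control arrays. Miapaca values were not well above background, and the lines did not overlap. CDH1 was named for this pattern, so it is given with no test. The probe was at least 80.0-fold dimmer in Miapaca.

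TGFBI encodes a secreted matrix protein named for its induction by TGF-beta. Its probe (ILMN_1663866) read 207, 189 and 312 intensity units on the Miapaca ORF, 3UTR and control arrays, against 2272 and 2163 on the BXPC3 ORF and control arrays. The log2 levels were 7.29, 7.13 and 7.38 in Miapaca and 11.26 and 11.15 in BXPC3. All 5 arrays detected it, and the lines did not overlap. The difference was −3.94 ± 0.22 (SE; limma, adjusted p = 8.88e-06), 15.4-fold lower in Miapaca.

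FN1 encodes fibronectin, a matrix glycoprotein and a standard EMT marker. Its 3 probes, each designed on a different transcript, read 83.7 to 105 intensity units over the 5 arrays, and none was detected. Its lowest detection p was 0.0196, on the Miapaca 3UTR array, and no direction can be given between the lines.

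SMAD4, the shared partner of the TGF-beta SMAD proteins, is known to be lost from the genome of the BxPC-3 line. Its log2 levels were 8.52, 8.36 and 9.09 on the Miapaca ORF, 3UTR and control arrays, against 4.30 and 4.21 on the BXPC3 ORF and control arrays, where it was undetected. The difference was 4.40 ± 0.28 (SE; limma, adjusted p = 1.6e-05), at least 18.4-fold higher in Miapaca, and was 2.46 without background correction. SMAD4 was detected in Miapaca alone, so it could only come out higher there. TGFBI, the member named for TGF-beta induction, was thus brighter in the line with no detected SMAD4 transcript.

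**Figure D2:**
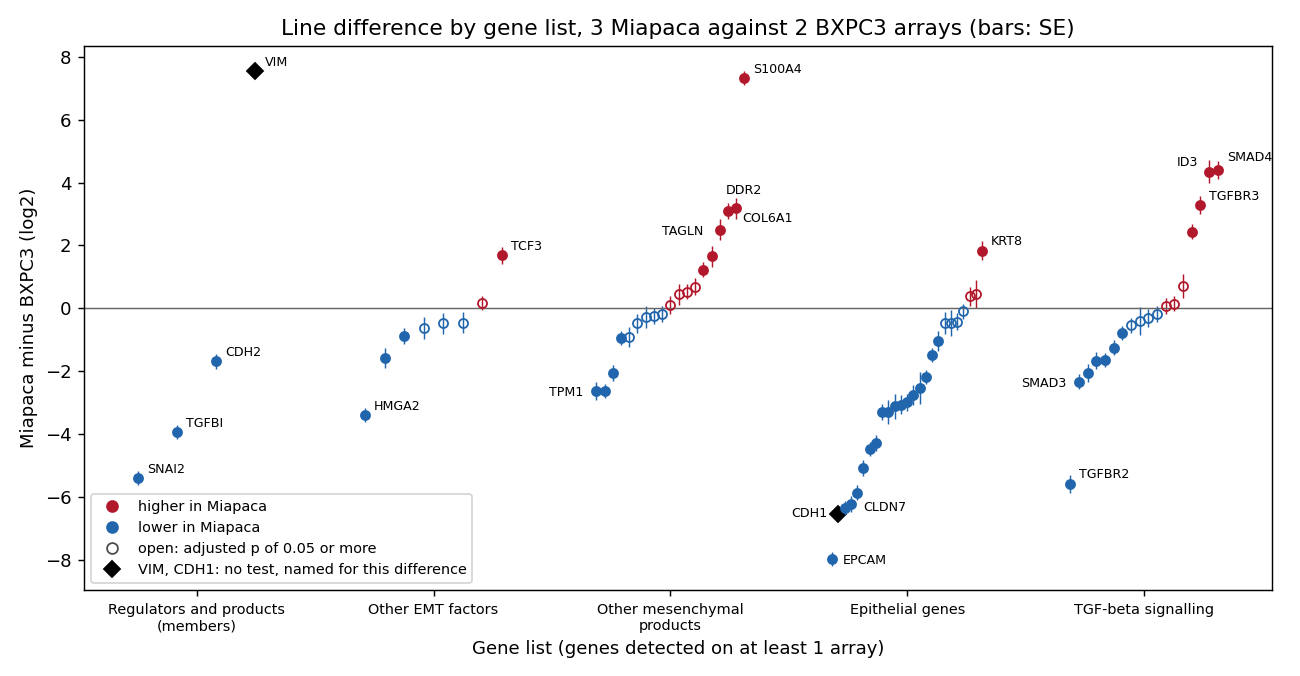
Difference between the lines (log2, Miapaca minus BXPC3; bars are the SE of the limma fit over 3 Miapaca and 2 BXPC3 arrays) for each gene of 5 lists detected on at least 1 array, with open circles for an adjusted p of 0.05 or more and diamonds for VIM and CDH1, which have no test. VIM (7.53) and S100A4 (7.32) stand far above 0, and SNAI2 (−5.40), TGFBI (−3.94) and CDH2 (−1.68) below it. Of the 12 epithelial genes detected in both lines, 6 were called lower and 1 higher, beside 1230 and 1453 of the 9727 genes so detected. Genes detected in BXPC3 alone could only lie below 0.

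The wider program was read from lists of related genes. Calls in each list stand beside 14.1% called higher and 14.6% called lower among the 12842 genes in the fit. Of 16 other EMT transcription factors, 14 had a probe and 8 were detected on at least 1 array. TCF3 was called higher in Miapaca, 3 factors were called lower, and 4 were not called, with a median difference of −0.55 against 0.06 over all genes. Of the 5 detected in both lines, 1 was called higher and 2 lower, beside 1453 and 1230 of all 9727 genes so detected. TCF3, a helix-loop-helix partner of TWIST1, had log2 levels of 8.58, 8.65 and 9.25 on the Miapaca ORF, 3UTR and control arrays, against 7.15 and 7.12 on the BXPC3 ORF and control arrays, a difference of 1.69. HMGA2, a chromatin protein that acts downstream of TGF-beta, was detected in BXPC3 only, with 4.31, 4.39 and 4.38 in Miapaca against 7.80 and 7.72 in BXPC3. Its level was at least 9.37-fold lower in Miapaca, where it was not well above background, and at least 2.01-fold lower by its dimmer probe. The other 2 factors called lower were LEF1 (−1.56), a Wnt effector that was above background on 1 of the 3 Miapaca arrays, and ETS1 (−0.88).

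Of 30 other mesenchymal products, 28 had a probe and 19 were detected. Among these, 6 were called higher and 4 lower in Miapaca, 9 were not called, and the median was 0.10. Of the 10 detected in both lines, 3 were called higher and 1 lower, beside 1453 and 1230 of all 9727 genes so detected. S100A4 had log2 levels of 13.95, 13.75 and 13.64 on the Miapaca ORF, 3UTR and control arrays, against 6.33 and 6.58 on the BXPC3 ORF and control arrays, a difference of 7.32 ± 0.23 (SE; limma, adjusted p = 5.91e-07). DDR2, a collagen receptor, and COL6A1, a collagen VI chain, were detected in Miapaca only, at levels at least 8.25-fold and 7.46-fold higher there. A second DDR2 probe was undetected on every array. TPM1, an actin-binding tropomyosin often raised by TGF-beta, differed the other way, by −2.62. It had 5.49, 6.31 and 6.18 in Miapaca, against 8.50 and 8.73 in BXPC3. Members of both lists were thus called in each direction.

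The 30 epithelial genes, chosen as known targets of ZEB and SNAIL repression or as junction and keratin genes, had 29 with a probe and 25 detected. Of these, 18 were called lower in Miapaca, 1 was called higher, 6 were not called, and the median was −2.99. CDH1, named for this pattern, is one of the 18, and genes detected in BXPC3 alone could only lie below 0. Of the 12 detected in both lines, 6 were called lower and 1 higher, and the median was −0.75. Over the 9727 genes detected in both lines, 1230 were called lower and 1453 higher, and the median was 0.07. EPCAM, an epithelial adhesion protein, had log2 levels of 4.38, 4.32 and 4.43 on the Miapaca ORF, 3UTR and control arrays, against 12.45 and 12.21 on the BXPC3 ORF and control arrays. Its level was at least 223-fold lower in Miapaca, at least 125-fold lower by a second probe, and lower by a difference of −4.10 on its last probe, which was detected on 1 Miapaca array. MAL2, a membrane trafficking protein of polarised cells, and CLDN7, whose E-boxes are printed above, were at least 71.7-fold and 68.8-fold lower. KRT8, a keratin of simple epithelia, was the gene called higher in Miapaca (1.84 ± 0.31, SE; limma, adjusted p = 0.00336), and KRT18, its filament partner, differed by 0.38 without passing the test.

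TGF-beta signalling had 23 genes on the array and 18 detected. Of these, 4 were called higher in Miapaca, 7 lower, and 7 were not called, with a median of −0.35. Of the 11 detected in both lines, 2 were called higher and 3 lower, beside 1453 and 1230 of all 9727 genes so detected. TGFBR2, the receptor that binds the ligand first, had log2 levels of 4.40, 4.23 and 4.47 on the Miapaca ORF, 3UTR and control arrays, not well above background, against 10.32 and 9.56 on the BXPC3 ORF and control arrays. Its level was at least 42.5-fold lower in Miapaca. By a second probe TGFBR2 was at least 34.4-fold lower, and its last probe was undetected on all 5 arrays. ID3 (4.34), a helix-loop-helix inhibitor induced by BMP signals, and TGFBR3 (3.28), a co-receptor, were called higher in Miapaca. TGFBR2 was thus undetected in Miapaca and SMAD4 in BXPC3, and neither was the only such gene of the list. TGFB2, SMAD7 and SKIL were also undetected in Miapaca, and BAMBI and ID2 in BXPC3. TGFB1, TGFBR1, SMAD6, SMURF2 and LTBP1 were undetected on all 5 arrays.

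Markers of fibroblasts, endothelium and blood were counted as well, since VIM is abundant in such cells. Of 16 markers, 5 were detected on at least 1 array, with a median difference of 0.47. COL1A2, a collagen I chain of fibroblasts, was the marker called: it had log2 levels of 11.31, 11.07 and 10.43 on the Miapaca ORF, 3UTR and control arrays, against 4.43 and 5.62 on the BXPC3 ORF and control arrays (difference 5.91 ± 0.40, SE; limma, adjusted p = 2.42e-05). COL1A2 was above background on 1 of the 2 BXPC3 arrays, the control. The other detected markers were not called: CD14 and CD68 of blood, detected on 5 arrays, CDH5 of endothelium, on 3, and COL3A1 of fibroblasts, on 1. COL1A1, DCN, LUM, PDGFRA and PDGFRB of fibroblasts, PECAM1, VWF and KDR of endothelium, and PTPRC, CD3E and HBB of blood were detected on no array. The summed bead intensity of the 16 markers was 3711 to 4313 on the Miapaca arrays and 1961 to 2093 on the BXPC3 arrays, and without COL1A2 it was 1748 to 2055 on the Miapaca arrays and 1863 to 1963 on the BXPC3 arrays. The part of such markers in the VIM level was not tested.

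No member changed 2-fold with a LYNX1 siRNA. With 1 array against 1 there is no test of a single comparison, and a gene entered where it was detected on at least 1 of the 2 arrays. With the ORF siRNA in Miapaca, 5.07% of all genes measured passed 2-fold upward and 5.51% downward. For the 3UTR siRNA in Miapaca the shares were 4.22% upward and 4.64% downward, and for the ORF siRNA in BXPC3 0.631% upward and 0.462% downward. Both Miapaca comparisons use the same control array.

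These shares depended on how the arrays were scaled. Scaling each array to a common median left the Miapaca ORF comparison with 188 genes upward and 1826 downward, in place of 553 and 600. The Miapaca 3UTR comparison then had 84 upward and 1982 downward, in place of 459 and 504. The BXPC3 comparison had 44 upward and 90 downward, in place of 71 and 52. Under that scaling all genes together had a median of −0.40 in the ORF comparison and −0.46 in the 3UTR comparison of Miapaca, and −0.11 in BXPC3, so signs of small changes rest on the scaling. The Miapaca control array also had a higher mean bead intensity (463) than the ORF (355) and 3UTR (343) arrays, whose part in these differences was not tested.

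In Miapaca, VIM was 0.25 log2 units above the control array under the ORF siRNA and 0.12 above it under the 3UTR siRNA. In BXPC3 it was 0.73 above the control array under the ORF siRNA. The second VIM probe gave 0.47 and 0.29 in Miapaca, and 0.28 in BXPC3, where it was undetected. In BXPC3 the first probe rested on 199 against 154 intensity units, close to background, and its difference was 0.39 without background correction and 0.38 in the authors' normalized values. Over the 5 arrays with the line as a factor, the siRNA difference was 0.42 ± 0.26 (SE; limma, adjusted p = 0.894).

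In Miapaca, TGFBI differed from the control array by −0.09 under the ORF siRNA and by −0.25 under the 3UTR siRNA. In BXPC3 it differed by 0.11 under the ORF siRNA. With median scaling the Miapaca values were −0.66 and −0.87, beside the medians over all genes of −0.40 and −0.46, while VIM had 0.38 and 0.14. The fit over all arrays gave −0.05 ± 0.25 (SE; limma, adjusted p = 0.977).

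SNAI2 and CDH2 could be compared in BXPC3 only. SNAI2 differed by −0.11 and CDH2 by 0.38 between the ORF siRNA and the control. In the fit over all arrays the values were −0.18 ± 0.24 for SNAI2 (limma, adjusted p = 0.913) and 0.14 ± 0.25 for CDH2 (limma, adjusted p = 0.931), with the Miapaca arrays near background. CDH1 differed by −0.06 in BXPC3. The other 6 members were undetected with every siRNA.

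The fit over all arrays called 0% of the 12842 genes, with a smallest adjusted p of 0.894, and 547 genes had an unadjusted p under 0.05 (limma). It called 109 genes without the Miapaca 3UTR array and 16 without the Miapaca ORF array. No member and no gene of the 5 lists was called in the fit over all 5 arrays.

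**Figure D3:**
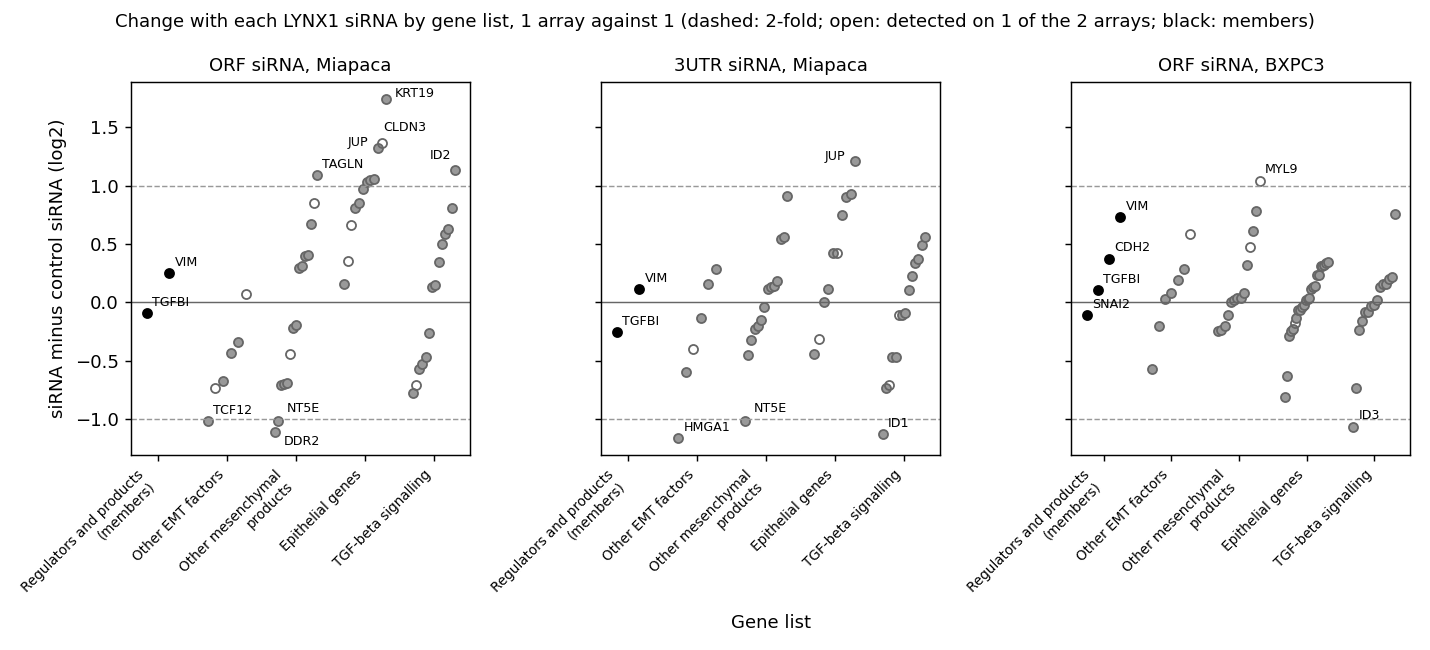
Difference between each LYNX1 siRNA and the control siRNA of its line (log2, 1 array against 1, no error estimate) by gene list, with dashed lines at 2-fold, black points for the members, and open points, drawn at their bound, for genes detected on 1 of the 2 arrays. Members lie between −0.25 and 0.73, and 9 of the 9 epithelial genes detected on both arrays lie above 0 with the ORF siRNA in Miapaca.

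Of the epithelial list, 9 genes were detected on both the ORF and the control array of Miapaca. All 9 lay above 0, as did 52.7% of the 9352 genes detected on both arrays. The median of the 9 was 1.03, beside 0.04 over the 9352. Of the 9, 5 were at least 2-fold higher, beside 470 of the 9352. CLDN3, PATJ and LLGL2 were detected on the ORF array alone, so they could only lie above 0. KRT19, a keratin of simple and ductal epithelia, had a log2 level of 10.80 with the ORF siRNA, against 9.07 on the control array, a difference of 1.74. JUP (plakoglobin), which links cadherins to the cytoskeleton, had 7.85 against 6.53, while its other probes gave 0.73 and 0.08. The last of these probes was undetected on both arrays. The tight-junction gene CLDN3 was at least 2.57-fold higher. PKP3, a desmosomal plakophilin, differed by 1.05 on one probe and −0.04 on another, which was undetected on both arrays. CDH1, EPCAM and CLDN7 were undetected on both arrays. With CLDN3, PATJ and LLGL2 included, 6 of 12 passed 2-fold upward, beside 5.07% of all genes measured, and the median was 0.999. The count of 6 became 2 with median scaling (median 0.57) and 2 with an offset of 50 (0.69). It became 1 without background correction (0.47) and 1 in the authors' normalized values (0.46). Over all genes the medians were −0.40, 0.02, 0.01 and 0.02 in the same order, against 0.02 with the main processing. The count of all genes past 2-fold upward also fell, from 553 to 188, 249, 146 and 164.

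With the 3UTR siRNA in Miapaca, 7 of the 8 epithelial genes detected on both arrays lay above 0, with a median of 0.59 beside 0.03 over all genes so detected. JUP alone (1.21) passed 2-fold, and its other probes, undetected on both arrays, gave 0.22 and 0.36. It passed under none of 5 alternatives: median scaling, no background correction, an offset of 50, the authors' normalized values and the mean over probes. With CLDN4 and ELF3, each detected on 1 array, the median was 0.43, and 0.13 with median scaling. The medians over all genes were 0.0003 and −0.46 in the same order. KRT19 had a log2 level of 9.07 with the 3UTR siRNA, against 9.07 on the control array. In BXPC3, 13 of 23 detected on both arrays lay above 0 with the ORF siRNA, the median was 0.03 and none passed 2-fold. Whether the siRNAs or the lines differ in this list was not tested.

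The other lists held few genes past 2-fold, and most of these calls rested on the processing. With the ORF siRNA in Miapaca the other EMT factors had a median of −0.55 over 6 genes, and TCF12, an E-protein partner of TWIST1, differed by −1.02 on one probe and −1.20 on another. No factor passed 2-fold without background correction, with an offset of 50 or in the authors' normalized values. Of 15 mesenchymal products, DDR2 (−1.11) and NT5E (−1.01), an ecto-nucleotidase, were past 2-fold lower and TAGLN (1.09), an actin-binding protein of smooth muscle, past 2-fold higher. The 2 other TAGLN probes gave 0.26 and −0.35, with a detection p under 0.01 on 1 array for 1 of them. The counts of 1 higher and 2 lower among these products became 0 and 0 without background correction, with an offset of 50 and in the authors' normalized values, and 0 and 5 with median scaling. Of 14 TGF-beta genes, ID2 was past 2-fold (1.13, with −0.23 on its other probe). No TGF-beta gene passed it upward under those 4 alternatives. With median scaling 3 passed it downward, SMAD4 among them (−1.11), and the list median was −0.33 in place of 0.14. Of all 10902 genes compared under that scaling, 1826 passed downward, and their median was −0.40 in place of 0.02.

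With the 3UTR siRNA in Miapaca, HMGA1, a chromatin protein, was past 2-fold among 6 EMT factors (−1.16, with −0.14 and −0.07 on its dimmer probes). The last of these probes was undetected on both arrays, and the one before it on the 3UTR array. NT5E (−1.01) was past 2-fold among 14 mesenchymal products, and ID1 (−1.13), a helix-loop-helix inhibitor, among 14 TGF-beta genes. A second ID1 probe gave −0.68 and was undetected on the 3UTR array. The list medians were −0.27, 0.04 and −0.10. NT5E no longer passed without background correction, with an offset of 50 or in the authors' normalized values. With median scaling 4 of the 14 TGF-beta genes passed downward, beside 1982 of all 10867 genes compared under that scaling.

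With the ORF siRNA in BXPC3, MYL9, a myosin light chain, was at least 2.06-fold higher among 14 mesenchymal products, with −0.30 on its other probe, undetected on both arrays. ID3 was the TGF-beta gene past 2-fold (−1.06). Neither passed without background correction, with an offset of 50 or in the authors' normalized values. The list medians in BXPC3 were 0.08 for the other EMT factors, 0.04 for the mesenchymal products and −0.03 for the TGF-beta genes, beside −0.01 over all genes. Among the markers of other cells in Miapaca, CDH5 was at least 2.78-fold lower with the ORF siRNA and CD14 differed by 1.07 with the 3UTR siRNA. In BXPC3, COL1A2 was at least 2.18-fold lower with the ORF siRNA. A second CD14 probe gave 0.58, undetected on the control array, and a second COL1A2 probe gave −0.30, undetected on both BXPC3 arrays. The list medians were 0.64, 0.64 and −0.50 over 4, 5 and 4 markers, and none of the 3 markers passed under those alternatives. The part of these markers in the members' values was not tested.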

How the data were processed

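RNA of 5 cultures was measured on 5 arrays, 1 per group, and samples were grouped by their titles. The authors deposited, per the file headers, unnormalized mean bead intensities and detection p-values; how those p-values were computed is not given in these sources. A deposited table of normalized intensity values, of unstated method, had column medians of 100.0 to 102 and was read as linear and uncentred.

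Of 48107 probes, 1 was left out for a missing value. Of the rest, 30113 had 1 gene symbol, 8 had several and 17985 were not listed. Symbols were updated through RefSeq accessions (29081 probes) or Entrez identifiers (1011 probes), 21 were kept, and 27 changed. The deposited intensities were corrected for background, quantile-normalized and log2-transformed by neqc (offset 16) in limma 3.58.1 with R 4.3.3, with background estimated from the detection p-values. Python 3.11.15, pandas 2.3.3, numpy 2.4.6 and matplotlib 3.10.9 did the rest. The brightest probe stood for its gene. No genome build is named for the array, so gene coordinates were not used.

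The line difference was fitted over all 5 arrays, and the LYNX1 siRNA response over all 5 arrays with the line as a factor, with Benjamini-Hochberg adjustment over genes with a detection p under 0.01 on at least 1 array. The line fit was checked on simulated data. Single siRNA comparisons have no test, and genes were counted past 2-fold. The members and the 5 gene lists were chosen with earlier results of these data known. Named genes were all members, CDH1, SMAD4, up to 4 genes of each list with the largest called line difference, up to 4 past 2-fold in each siRNA comparison, and the 5 nearest to VIM. Others were named after their values were seen, among them MIR205, the miR-200 precursors, KRT8, KRT18, CD68, COL3A1 and genes undetected in a line or in both. Alternatives covered scaling, background correction, offset, source of values, probe choice, detection threshold, arrays left out and the design.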

Additional observations from a re-analysis of the deposited data

Results flagged for a closer look

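TGFBI had opposite signs with the ORF siRNA in the 2 lines: its log2 difference from the control array was −0.0932 in Miapaca and 0.106 in BXPC3. Each value rests on 1 array against 1, and the difference between the lines was not tested.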

How the results depend on the processing

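The line differences of SNAI2, CDH2, TGFBI and SMAD4 kept their direction and stayed under an adjusted p of 0.05 (limma) in all 14 alternatives run. CDH2 ranged from −1.87 to −0.62 and SNAI2 from −5.47 to −3.36. Being detected in a single line, SNAI2 and CDH2 could only come out lower in Miapaca, and SMAD4 only higher. The count of genes called between lines was 3689, 4558 with the siRNA as an additive factor, and 1496 to 3799 with 1 array left out. The lowest counts came without the BXPC3 ORF array (1496) and without the BXPC3 control array (1559), which leave BXPC3 with 1 array assumed to vary like Miapaca. The count of genes called with LYNX1 siRNA was 0, and 0 to 109 with 1 array left out. It was 109 with the ORF and control arrays only. Counts past 2-fold, given as higher then lower, moved with the processing as follows. For the ORF siRNA in Miapaca they were 188 and 1826 with median scaling, 146 and 199 without background correction, 249 and 307 with an offset of 50, and 164 and 197 in the authors' normalized values. For the 3UTR siRNA they were 84 and 1982, 96 and 141, 184 and 250, and 104 and 147 in the same order. For the ORF siRNA in BXPC3 they were 44 and 90, 5 and 1, 12 and 3, and 6 and 1. No member passed 2-fold with an siRNA in these alternatives. No paired analysis was possible because each group holds 1 array, so replicate numbers mark no pairs. The siRNA fit with the line as a factor sets siRNA against control within each line. Weak signal limits the other 6 members, whose probes lay at background.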
